A study of Mus musculus with 4 samples.

Results

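The enzymes that oxidise, hydrolyse and conjugate drugs, alcohols, steroids and other small lipophilic molecules were followed at their gene promoters in resting and regenerating mouse liver. Members were taken by gene symbol, namely the cytochrome P450, flavin monooxygenase (Fmo), alcohol and aldehyde dehydrogenase (Adh, Aldh), carboxylesterase (Ces), UDP-glucuronosyltransferase (Ugt), glutathione S-transferase (Gst, Mgst) and sulfotransferase (Sult) genes, without Cyp7a1, Cyp8b1, Cyp27a1, Cyp7b1 and Cyp4a14. A total of 76 genes were found among the 10925 genes that either list of regions names, of which 73 are protein-coding and 3 are pseudogenes by RefSeq. A region names 1 gene only, so family members that no region names were not analysed here. Acetylated histone H3 lysine 27 (H3K27ac), found at promoters and enhancers in use, was profiled by CUT&Tag, in which an antibody brings a transposase to the mark. The groups were sham-operated wild-type C57/BL6J mice and mice of the same strain 12 h after surgical removal of 70% of the liver (partial hepatectomy, PHx), with 2 libraries each. The sham libraries carry no time after surgery in the labels, which also do not give ages or say whether the libraries of a group came from separate animals. The authors joined both libraries of a group into 1 region list (GRCm39) that gives positions and no signal. Depth is therefore unknown, replicate errors cannot be given, and the groups could not be tested against each other.

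Drug metabolism in hepatocytes runs in steps. Phase I enzymes such as P450s, flavin monooxygenases, dehydrogenases and carboxylesterases introduce or expose a reactive group, and phase II enzymes attach glucuronic acid, glutathione or sulfate to it. Many of these genes lie in tandem clusters of recent copies, and their expression depends on hepatocyte factors such as HNF4A and on ligand-activated receptors such as AHR, CAR and PXR, while NRF2 acts on several glutathione transferases.

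Promoter sequence was available for 59 of the 76 members, from the RefSeq promoter table of build GRCm38.p6, which is not the build of the region lists and was matched by symbol only. The start of transcription in that table need not be the one used in the lists. Each state given with a sequence is the state at the start in the lists. The 130 bases before the start are shown for genes whose state at the promoter is described below, with motif matches in capitals. The first pair, Gstp1 (chr19:4037913-4038042, minus strand) and Gstp2 (chr19:4042222-4042351, minus strand), are neighbours whose promoters share TGAGTCA, a match to the AP-1 motif TGANTCA, and the capitals near the start of Gstp1 are a match to GCGTG, the core of the AHR element.
Gstp1: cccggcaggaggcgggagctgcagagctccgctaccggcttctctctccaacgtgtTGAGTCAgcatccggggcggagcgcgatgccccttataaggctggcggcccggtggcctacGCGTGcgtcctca
Gstp2: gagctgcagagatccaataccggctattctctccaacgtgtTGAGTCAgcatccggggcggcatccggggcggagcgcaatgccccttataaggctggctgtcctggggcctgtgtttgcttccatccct
The next set had a region at the promoter in PHx only, namely Mgst3 (chr1:167393842-167393971, minus strand; capitals GCGTG), the CpG-rich Cyp2r1 (chr7:114562973-114563102, minus strand) and Gstm3 (chr3:107969175-107969304, minus strand).
Mgst3: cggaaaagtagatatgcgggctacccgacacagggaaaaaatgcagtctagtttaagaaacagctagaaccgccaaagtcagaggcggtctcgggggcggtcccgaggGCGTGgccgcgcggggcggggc
Cyp2r1: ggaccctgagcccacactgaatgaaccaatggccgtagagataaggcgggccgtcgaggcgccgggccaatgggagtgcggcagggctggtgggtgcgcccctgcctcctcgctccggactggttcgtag
Gstm3: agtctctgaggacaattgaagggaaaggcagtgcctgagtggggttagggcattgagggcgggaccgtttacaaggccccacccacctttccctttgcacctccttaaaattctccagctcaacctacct
Cyp2c70 (chr19:40187287-40187416, minus strand; capitals the HNF4 motif CAAAGTCCA) and Ces2a (chr8:104733873-104734002, plus strand) had a region in sham only.
Cyp2c70: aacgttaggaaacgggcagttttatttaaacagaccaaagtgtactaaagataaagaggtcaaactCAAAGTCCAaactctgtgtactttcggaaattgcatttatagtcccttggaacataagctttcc
Ces2a: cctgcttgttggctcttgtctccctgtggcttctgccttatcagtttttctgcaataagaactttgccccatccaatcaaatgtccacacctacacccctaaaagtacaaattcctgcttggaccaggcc
Gsta3 (chr1:21240455-21240584, plus strand; capitals TGACNNNGC, the core of the antioxidant response element) and Cyp1a1 (chr9:57697483-57697612, plus strand; capitals GCGTG) had one in both groups. Past the Cyp1a1 start in the lists the region ran 2873 bp in sham and 12872 bp after PHx. Whether either region reached the sequence shown for Cyp1a1 was not tested.
Gsta3: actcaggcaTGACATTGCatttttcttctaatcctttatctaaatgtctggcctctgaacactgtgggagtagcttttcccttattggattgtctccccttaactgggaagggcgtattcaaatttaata
Cyp1a1: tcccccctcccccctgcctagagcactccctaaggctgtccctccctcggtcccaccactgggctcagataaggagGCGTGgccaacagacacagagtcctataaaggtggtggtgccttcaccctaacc

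The motifs were searched on both strands in the 250 bases before each start, in 74 promoters of the 59 members and in all 32851 promoters of the table. GCGTG was found in 20.3% of the members' promoters and in 28.2% of all promoters. For TGACNNNGC the shares were 5.41% and 10.2%, with matches at Aldh9a1, Cyp4f14, Gsta3 and Mgst1, and for TGANTCA they were 8.11% and 6.75%. The HNF4 motif occurred in Cyp2c70 alone among the members and in 0.383% of all promoters. The FOXA motif TGTTTAC was found in 2.70% and 3.17%, and the C/EBP motif TTGCGCAA and a nuclear receptor direct repeat (DR4) had no match in these windows of the members. They occurred in 0.164% and 0.00913% of all promoters. The members' promoters held a median of 3 CpG dinucleotides in the 250 bases, where all promoters had 6, with a median GC content of 52.6% and 52.4%.

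Most of the 76 promoters, all of genes that a region names, carried a region in both groups. The transcription start site (TSS) was the most upstream one that the lists give, and a promoter counts as marked where a region came within 1 kb of it. Both groups had the mark at 53 of the 76 members (69.7%), while 12 were PHx-only, 4 were sham-only and 7 had none. Over all 10925 genes the corresponding shares were 59.1%, 17.8%, 8.19% and 14.9%. Of the 7090 protein-coding genes 15.4% were PHx-only and 9.79% were sham-only. The members' 15.8% in PHx only is thus near the background, and their 5.26% in sham only is below it by a few genes. Of the 12 PHx-only members 10 lay in stretches where a sham library had a peak number that no listed region uses, and so did all 4 sham-only members for the PHx libraries. Over all genes with a region on either side, 84.8% of PHx-only and 83.8% of sham-only promoters lay in such stretches. In the plot by family the Adh, Aldh, Cyp4, Gst and Ugt genes have PHx-only members and no sham-only member, and the Ces and the drug-oxidising P450 genes have both kinds. Of the 3 Fmo genes 1 is sham-only and none is PHx-only, and the Sult and remaining P450 genes have neither kind. With 3 to 17 genes in a family, the lack of a sham-only member says little beside the 8.19% of all genes.

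**Figure D1:**
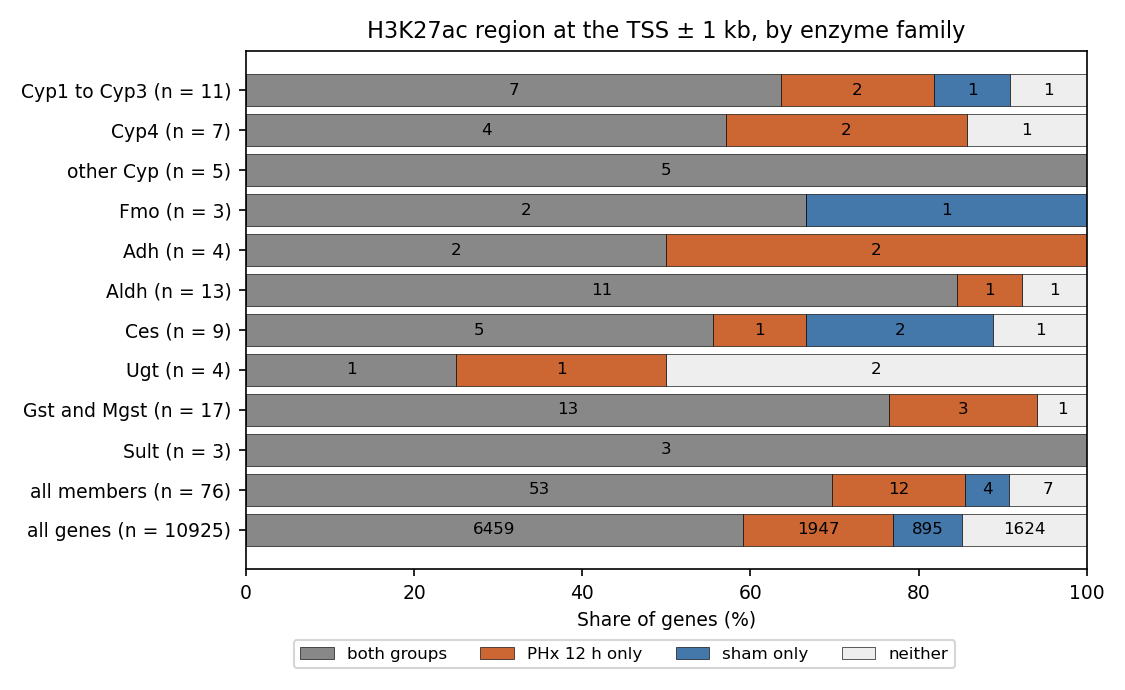
Share of genes in each family (horizontal axis, %) by where an H3K27ac region met the TSS ± 1 kb (both groups, PHx 12 h only, sham only, neither), with gene counts inside the bars. The 76 members, with 53 marked in both groups, stand above the row for all 10925 genes.

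The regions at these promoters were wider after PHx, and less so than at other genes. Among the 53 members marked in both groups the median sham width was 10225 bp and the median PHx width 13963 bp. Over all 6459 genes of this kind the medians were 9062 and 17999 bp. The ratio of PHx to sham width had a median of 1.37 (quartiles 1.05 and 1.86) for the members and 1.74 (1.24 and 2.81) for all genes, and 36 of the 53 members lay below the latter. A ratio of at least 1.5 was reached by 21 of 53 members (39.6%), against 60.2% of all genes, and a ratio over 1 by 46 of 53 (86.8%), against 91.5%. No member was narrower by 1.5-fold, which 1.36% of all genes were. A ratio of 2 was reached by 11 members (20.8%) and 41.3% of all genes. Relative to the all-gene median, 6 members (11.3%) were at least 1.5-fold wider and 18 (34.0%) at least 1.5-fold narrower, against 28.2% and 19.8% of all genes. Widths within 10% of each other were found at 12 members (22.6% of the 53) and at 11.3% of all genes. Since narrow sham regions widen more in these lists, the genes were also divided by sham width into 4 bins of equal size. From the narrowest bin to the widest, the members' median ratio was 2.04, 1.26, 1.39 and 1.20, and that of all genes 2.14, 1.80, 1.65 and 1.44. The bins held 8, 12, 19 and 14 members, of which 4, 10, 12 and 9 lay below the all-gene median of their bin. In the narrowest bin the members were thus close to all genes.

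**Figure D2:**
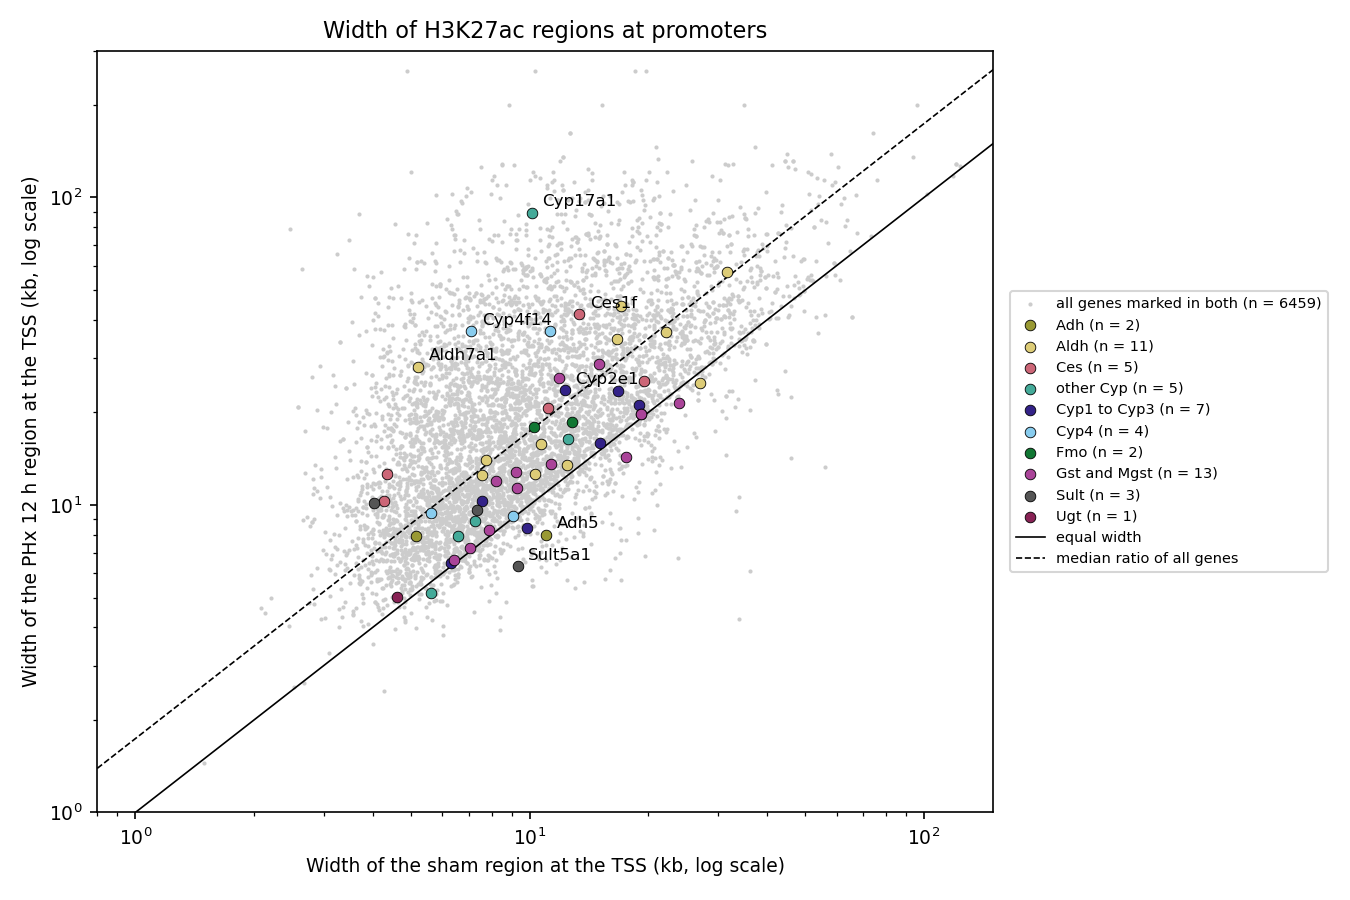
Width of the region at the TSS in sham (horizontal axis, kb, log scale) and after PHx (vertical axis, kb, log scale) for all 6459 genes marked in both groups (grey) and the 53 members (coloured by family). The solid line marks equal width and the dashed line the median ratio of all genes, 1.74; 36 of the 53 members lie below the dashed line.

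At some members the PHx region joined several sham regions. At 41 of the 53 members (77.4%, against 67.1% of all genes) a single sham region met a single PHx region. There the median ratio was 1.22, against 1.43 over the 4331 genes of this kind. Of these 41 members 11 (26.8%) were at least 1.5-fold wider, against 44.9% of such genes. At the other 12 members the PHx region overlapped 2 or more sham regions, with a median ratio of 2.39. Set against the summed width of the sham regions that it overlaps, the PHx region at these 12 genes was 1.15 times as wide, and over the 2066 such genes of the series these medians were 3.18 and 1.33.

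The P450 genes of families 1 to 3, which hold the main drug-oxidising enzymes, had a median ratio of 1.12 over the 7 of 11 marked in both groups, with a range from 0.854 to 1.93. Cyp2e1, which oxidises ethanol and paracetamol and is a gene of pericentral hepatocytes, had the largest ratio of these, with a sham region of 12264 bp and a PHx region of 23620 bp. The sham region (chromosome 7, 140332767 to 140345030) ended 1298 bp inside the gene, and the PHx region (140331892 to 140355511) covered the whole gene. Cyp1a1, the polycyclic hydrocarbon-metabolising target of AHR, went from 16781 to 23550 bp, with a share of the gene under the region of 18.1% in sham and 81.0% after PHx. Cyp2f2, a naphthalene-oxidising enzyme of periportal hepatocytes, measured 18878 and 21061 bp and was covered from end to end in both groups. Cyp2j5 (6327 and 6476 bp), an arachidonic acid epoxygenase, and Cyp2u1 (15112 and 15906 bp) had nearly the same width. Cyp2d22 went from 7555 to 10323 bp, and Cyp2d26 (9856 and 8414 bp) was the single narrower gene.

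The one-group genes of these P450 families were in families 2c and 2r. Cyp2c23 had a PHx region of 19231 bp (chromosome 19, 44004075 to 44023305), and the nearest sham region lay 26923 bp away. Cyp2r1, the vitamin D 25-hydroxylase, had one of 4616 bp, the narrowest of the PHx-only regions, with the nearest sham region 138705 bp away. Cyp2c70, which makes muricholic acids in the mouse, had a sham region of 6816 bp (chromosome 19, 40170857 to 40177672) and none within 31052 bp after PHx. PHx library 2 had 2 unused peak numbers in that stretch and library 1 had 0. The pseudogene Cyp2d37-ps was marked in neither group and had a distal region in both.

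The fatty acid hydroxylase genes of family 4 and the remaining P450 genes ranged more widely. Cyp4f13 and Cyp4f14, the latter a leukotriene B4 hydroxylase, lie side by side on chromosome 17 and shared 1 PHx region of 36674 bp. In sham they had separate regions of 11227 and 7116 bp, and with another region between them these added up to 22579 bp. Cyp4f15 measured 5617 and 9381 bp and Cyp4v3 9086 and 9218 bp. Cyp4f17 (8393 bp) and the pseudogene Cyp4f41-ps (5960 bp) were marked in PHx only, and Cyp4f37 in neither.

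Cyp17a1, the steroid 17-hydroxylase, had the largest ratio of all members, 8.80, from regions of 10145 and 89254 bp (the latter on chromosome 19, 46573420 to 46662673). That PHx region overlapped 5 sham regions with a summed width of 81000 bp, so that the ratio to all of them was 1.10. It ran 88019 bp downstream of the Cyp17a1 TSS and also covered the TSS of Wbp1l, besides that of Gm36602, which the sham region held too. PHx library 1 contributed 1 peak to it and library 2 contributed 4 peaks. The sterol demethylase gene Cyp51 (6582 and 7903 bp), the retinoic acid hydroxylase gene Cyp26a1 (12523 and 16406 bp) and Cyp20a1 (7263 and 8872 bp) had ratios between 1.20 and 1.31. Cyp11b2, the aldosterone synthase of the adrenal cortex, had a region of 5606 bp in sham and 5176 bp after PHx, of which 461 and 454 bp lay downstream of its TSS.

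**Figure D3:**
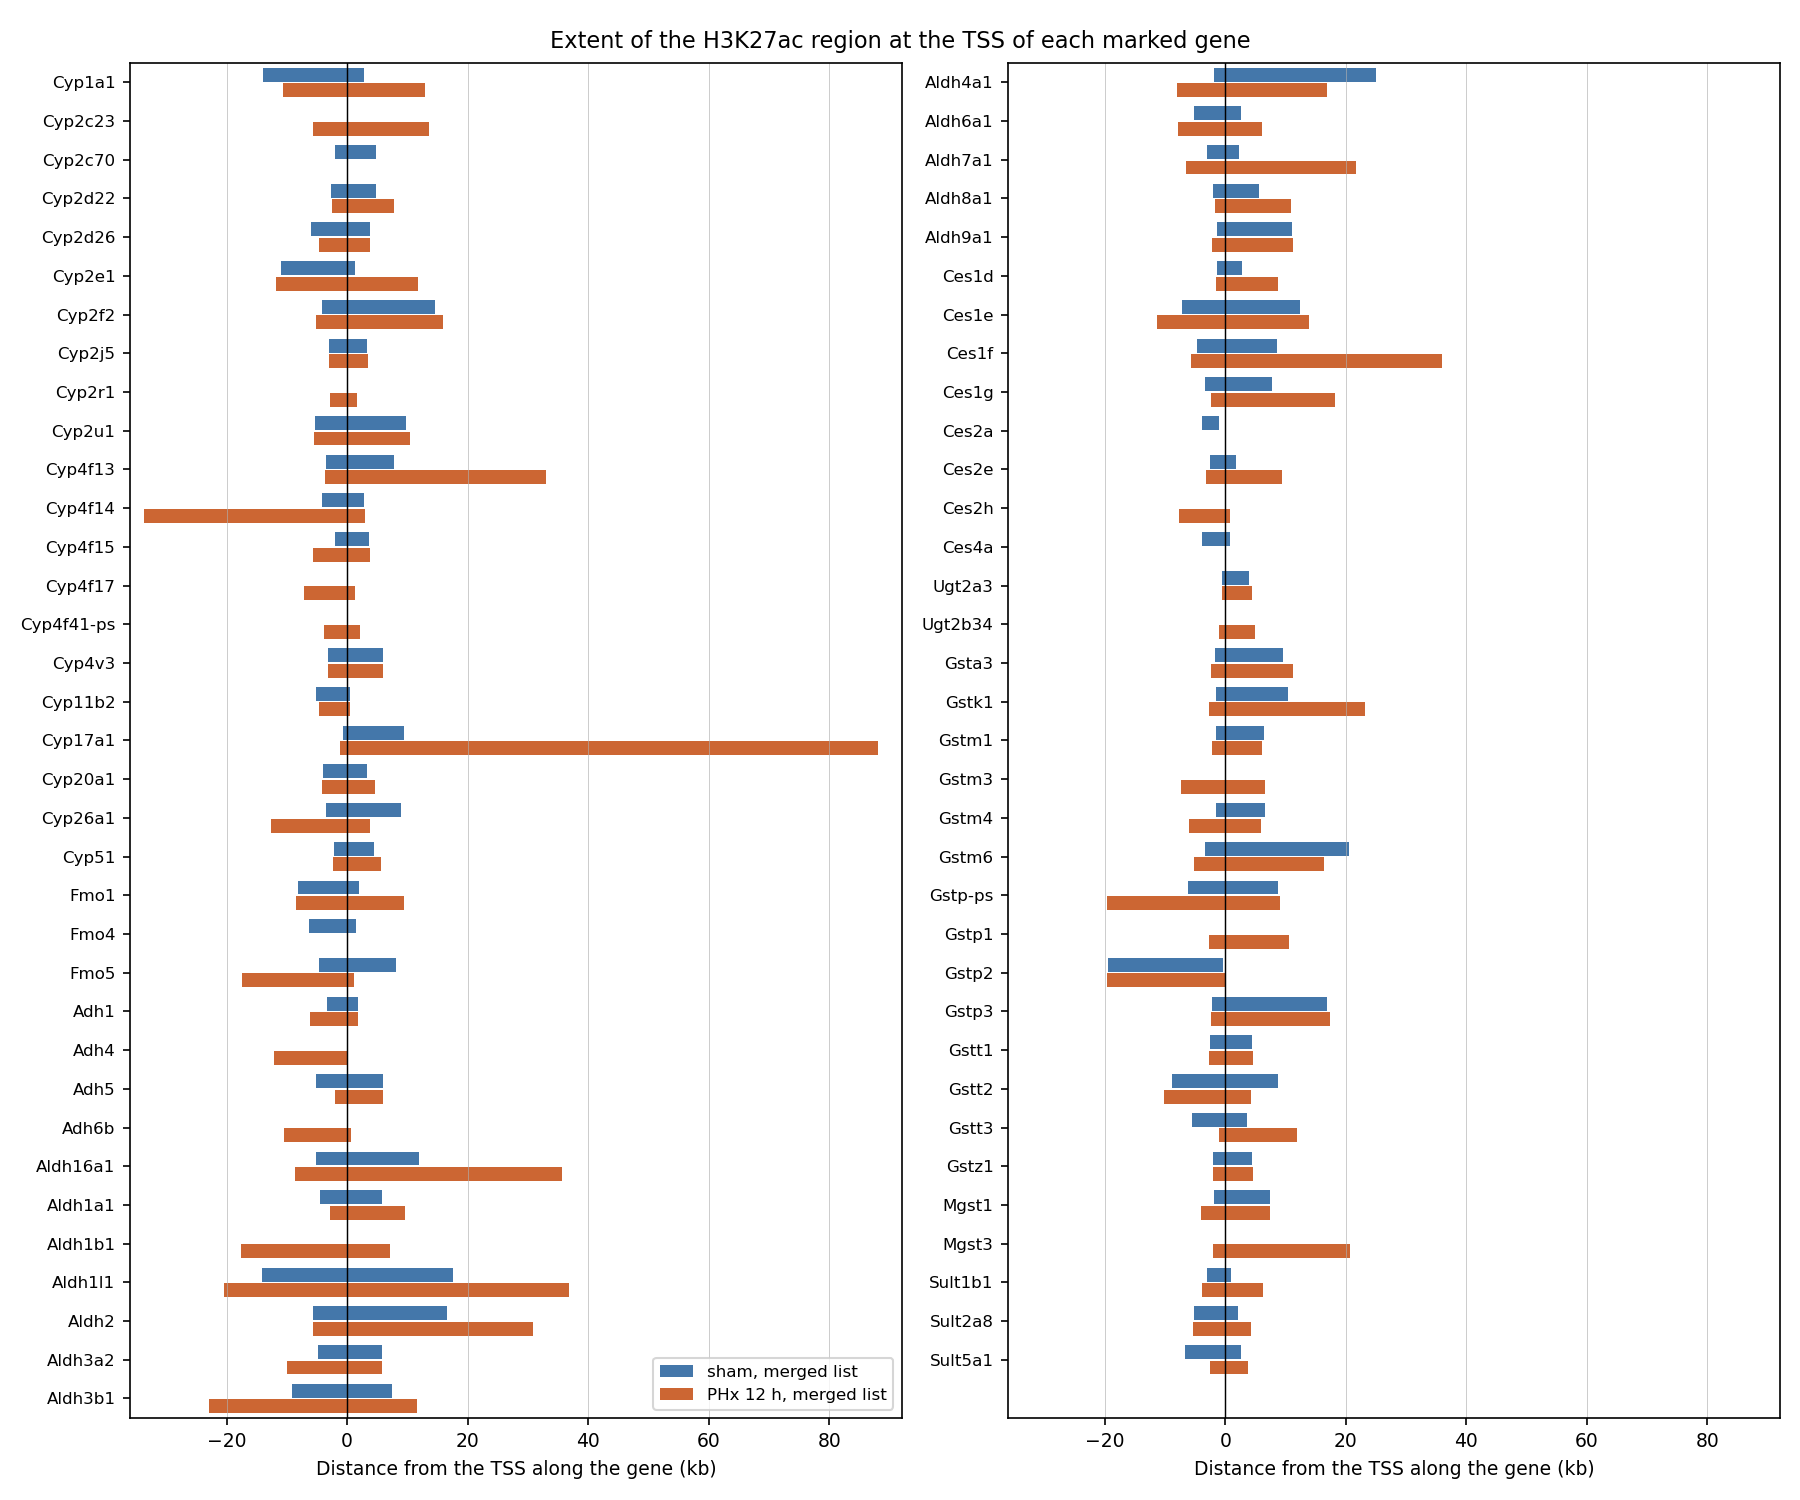
Extent of the region at the TSS of the 69 members marked in at least 1 group, as distance from the TSS along the direction of the gene (horizontal axis, kb), in sham (blue) and PHx 12 h (orange). The Cyp17a1 region runs 88019 bp downstream after PHx, and several pairs of bars, such as those of Cyp2j5 and Gstz1, are nearly equal.

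Flavin monooxygenase genes differed between members. Fmo1 went from 10225 to 17927 bp. Fmo4 had a region in sham only (7711 bp; chromosome 1, 162639638 to 162647348), and the nearest PHx region, that of Fmo1, lay 37091 bp upstream. The most upstream TSS of Fmo5 fell into regions assigned to its neighbour Chd1l, with 12795 and 18648 bp.

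Alcohol dehydrogenase genes form a cluster on chromosome 3, in which 2 of 4 were marked in both groups and 2 in PHx only, against 17.8% of all genes in PHx only. Adh1, the main ethanol-oxidising enzyme, went from 5148 to 7952 bp. Adh5, which clears formaldehyde as its glutathione adduct, was narrower after PHx, with 10996 and 8003 bp, and the 6308 bp sham region near the end of the gene had no PHx counterpart. Adh6b was marked in PHx only (11086 bp), with the nearest sham region 33723 bp away and 2 unused peak numbers of sham library 2 in that stretch. Adh4 was in PHx only by a small margin, since the PHx region of 12120 bp ended 9 bp past its TSS and a sham region of 9973 bp ended 1663 bp before it, and with a window of 3 kb it was marked in both. In the window from 10 kb before to 10 kb after the cluster, regions covered 37007 bp in sham and 64194 bp after PHx, of which 22998 bp were common to both.

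Aldehyde dehydrogenase genes stood closer to all genes, with a median ratio of 1.65 over the 11 of 13 marked in both groups. Aldh2, the mitochondrial enzyme that clears acetaldehyde, went from 22180 to 36563 bp, and the sham regions within the PHx region added up to 34746 bp. Aldh1l1, a folate enzyme, had the widest sham region of all members, with 31690 bp, and a PHx region of 57321 bp (chromosome 6, 90507271 to 90564591). Aldh7a1, of lysine breakdown, went from 5220 to 28185 bp, a ratio of 5.40 and of 1.80 to the summed sham regions. Aldh6a1 of valine breakdown went from 7752 to 13963 bp. Aldh16a1 (17062 and 44205 bp) and Aldh3b1 (16697 and 34621 bp) were over 1.5-fold wider by the nearest region alone. Against the full width of all sham regions they overlap, with sums of 38125 and 45714 bp, their ratios were 1.16 and 0.757. At Aldh3b1 these sham regions ran beyond the PHx region, and 29476 bp of their sum lay within it. The ratio of 0.757 is therefore no sign of less coverage after PHx. Aldh1a1, which makes retinoic acid (10322 and 12561 bp), and Aldh9a1 (12407 and 13442 bp) changed less, and Aldh4a1 of proline breakdown measured 26957 and 24857 bp. Mitochondrial Aldh1b1 was marked in PHx only, by a region of 24717 bp that covered the whole gene, and the nearest sham region was 47470 bp away. Aldh3a1 was marked in neither group.

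Carboxylesterase genes, whose products split ester drugs and lipid esters, had the largest median ratio of the families with 5 or more genes marked in both, 2.41. Over the 4 Cyp4 genes marked in both the median ratio was 2.47. Ces1f went from 13355 bp to 41749 bp (chromosome 8, 93970374 to 94012122), 1.92 times the 21801 bp of the sham regions it overlaps. Ces1d, a triglyceride hydrolase, went from 4272 to 10276 bp, Ces1g from 11146 to 20723 bp and Ces2e from 4340 to 12645 bp. Ces1e had the smallest ratio, 1.29, with 19523 and 25225 bp. Both sham-only esterase genes had narrow regions: 2910 bp at Ces2a, which ended 953 bp before the TSS, and 4680 bp at Ces4a. Their nearest PHx regions lay 133033 and 89982 bp away. Ces2h was marked in PHx only (8456 bp), and Ces1h in neither. Over the Ces1 cluster regions covered 24.3% of the window in sham and 41.9% after PHx, and over the Ces2 and Ces4a cluster 6.81% and 7.89%.

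Of the glucuronosyltransferase genes, which were 4 in number, only Ugt2a3 was marked in both groups, with 4594 and 5037 bp. Ugt2b34 was in PHx only (5953 bp), and Ugt1a5 and Ugt2b35 in neither. To Ugt1a5 the authors assigned an intron region 10826 bp from its TSS in sham (6027 bp wide) and 10934 bp after PHx (10547 bp wide). Genes of the Ugt1a locus overlap, and the region need not belong to Ugt1a5. Among the sulfotransferase genes Sult1b1 went from 4023 to 10147 bp and Sult2a8 from 7356 to 9612 bp. Sult5a1, with 9312 and 6308 bp, had the smallest ratio of all members, 0.677.

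Glutathione transferase genes had a median ratio of 1.05 (quartiles 1.03 and 1.39) over the 13 of 17 marked in both groups. Within 10% of equal width were 5 of them, of which Gstp2 and Gstp3 share 1 region. Gstz1, the maleylacetoacetate isomerase of tyrosine breakdown, had 6428 and 6628 bp. Gstt1 measured 7049 and 7234 bp. Gstm1, one of the abundant mu class enzymes of liver, had regions of 7873 and 8277 bp, both covering the whole gene. Gsta3, whose promoter above holds the antioxidant element core, had 11317 and 13565 bp, and the microsomal Mgst1 9308 and 11323 bp. Gstt2 (17548 and 14328 bp) and Gstm6 (23919 and 21451 bp) were narrower after PHx. At least 1.5-fold wider were Gstk1 of mitochondria and peroxisomes (11847 and 25894 bp), whose PHx region was assigned to Casp2, and the pseudogene Gstp-ps (14986 and 28722 bp). Both PHx regions overlapped 2 sham regions, and against their summed widths the ratios were 1.39 and 1.13.

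**Figure D4:**
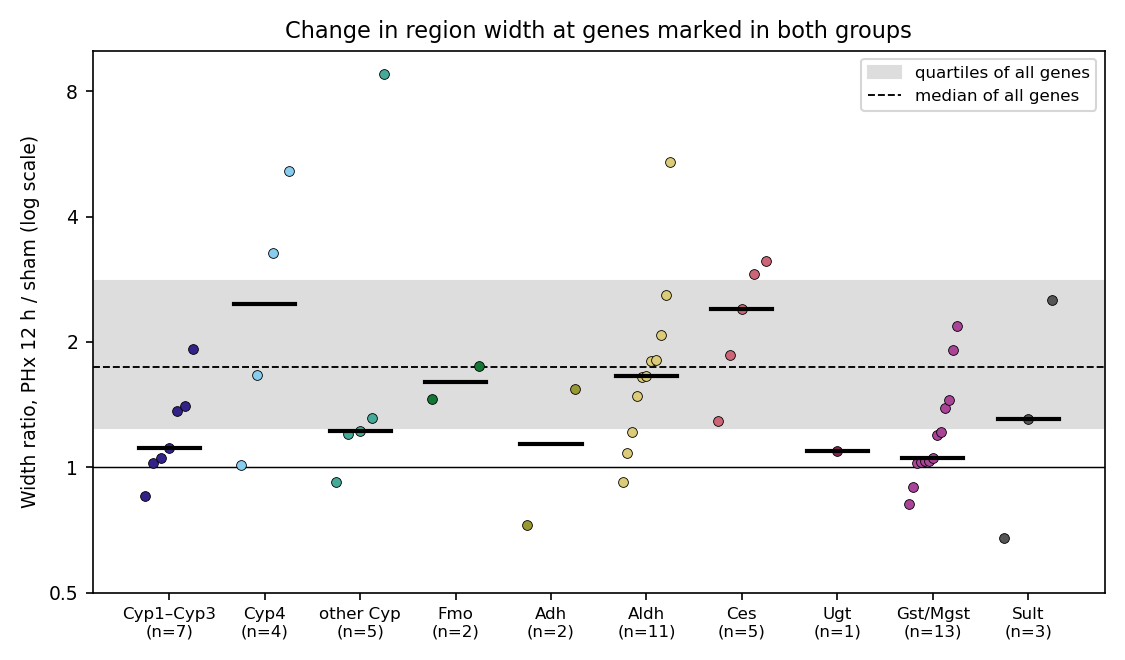
Ratio of PHx 12 h to sham width (vertical axis, log scale) for each member marked in both groups (points), with family medians (bars), the quartiles of all genes (grey band) and their median (dashed). The Gst and Mgst genes centre on 1.05 and the Ces genes on 2.41, with 1.74 for all genes.

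Gstp1, Gstm3 and Mgst3 were the glutathione transferase genes marked in PHx only. At Gstp1 the PHx region of 13302 bp (chromosome 19, 4077287 to 4090588) covered the gene, and a sham region of 5435 bp began 2334 bp downstream of its TSS. Neither sham library had an unused peak number there. The adjacent Gstp2 and Gstp3 shared 1 region in each group, of 19109 bp in sham and 19744 bp after PHx, whose edge lay 300 bp before the Gstp2 TSS in sham and 181 bp past it after PHx. Gstp1 and Gstp2 are near-identical copies, with a run of 43 identical bases in the 250 bases before their starts, so reads there could have been split between them and their values are uncertain. Gstm3 had a PHx region of 13941 bp (chromosome 3, 107869883 to 107883823) in a stretch where sham library 1 had 2 unused peak numbers and library 2 had 0. Mgst3 had one of 22658 bp (chromosome 1, 167200760 to 167223417), with the nearest sham region 32824 bp away and 2 and 5 unused numbers. Mgst2 was marked in neither, with a PHx region 1417 bp upstream of its TSS.

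The plot of the clusters shows where neighbours shared or gained regions. Over the Gstm cluster regions covered 33955 bp in the sham list and 53844 bp in the PHx list, with 32970 bp in common. Over the Gstp cluster the covered share was 63.3% and 82.7%. Over the Gstt cluster it was lower after PHx, with 55.7% and 42.1%. In the pair of Fmo1 and Fmo4 the covered length was 17936 and 17927 bp, of which 10225 bp were common. The whole lists covered 1.62 times as much sequence after PHx as in sham, and the clusters lay on both sides of that figure. Ratios above it were found at Cyp4f13 and Cyp4f14 (1.90), Cyp4f15 and Cyp4f17 (1.80), Adh (1.73) and Ces1 (1.73). Lower ratios were found at Gstm (1.59), Gstp (1.31), Ces2 and Ces4a (1.16), Fmo (0.999), Aldh3a (0.903), Cyp2d (0.887) and Gstt (0.755).

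**Figure D5:**
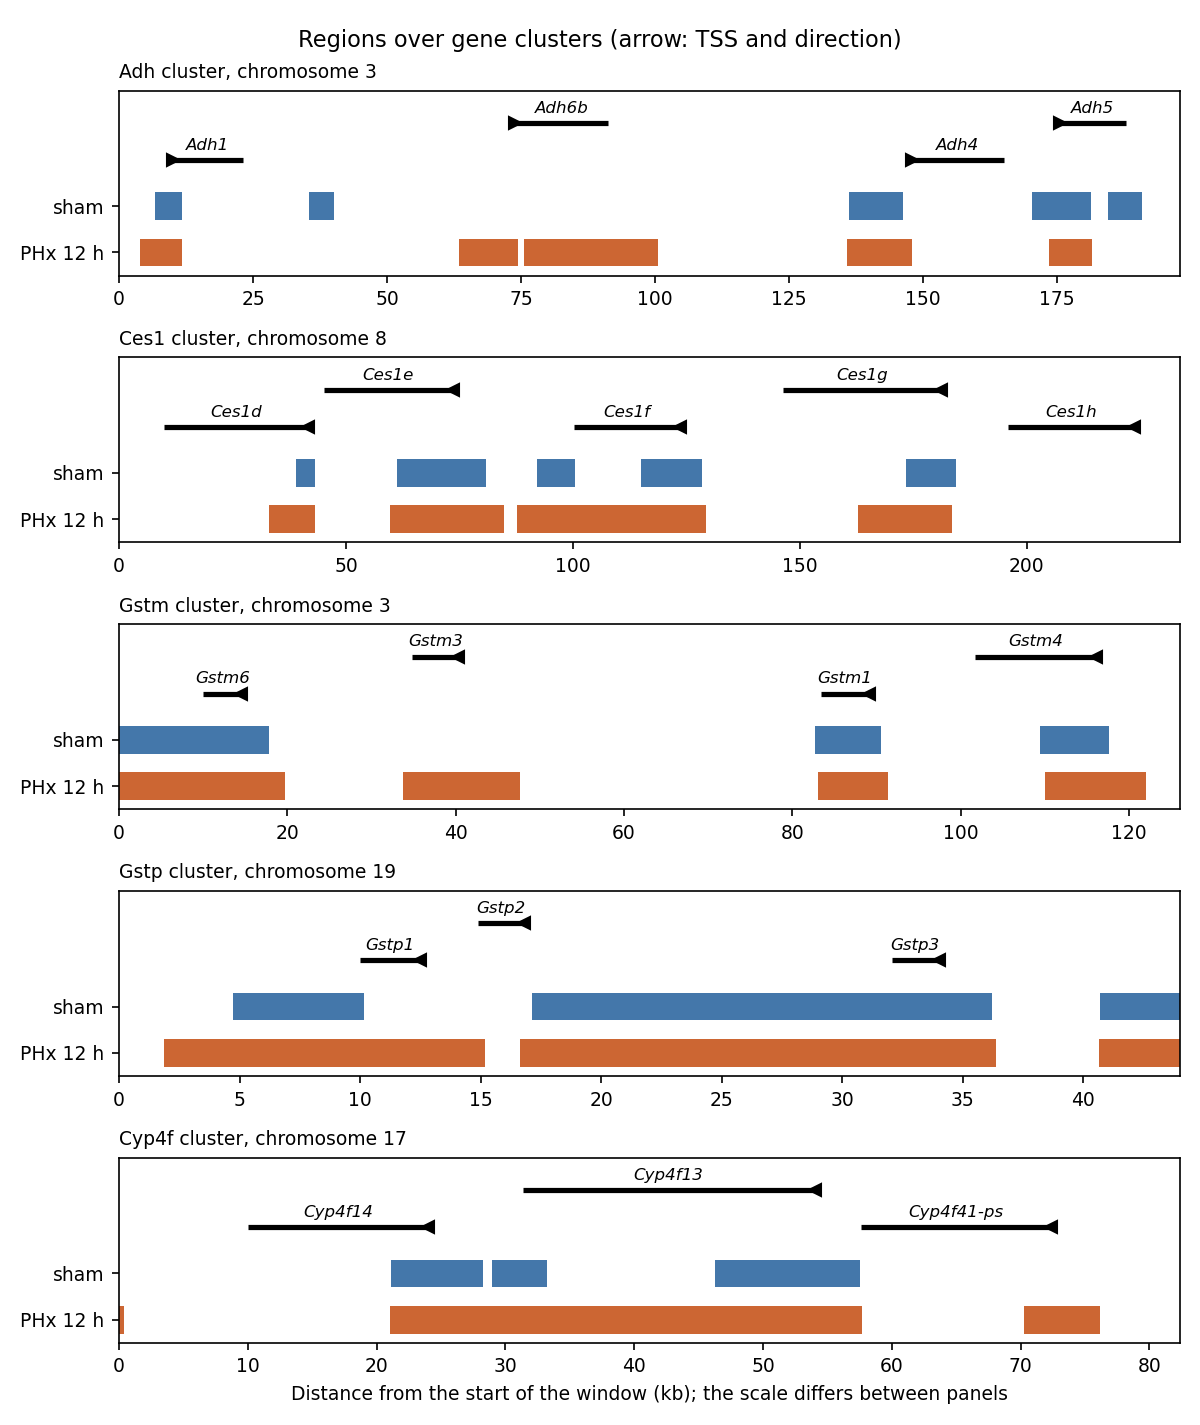
Regions of the sham and PHx 12 h lists over 5 gene clusters, as distance from the start of a window that begins 10 kb before the first gene (horizontal axis, kb; scales differ). Arrows mark each TSS and its direction. Gstm3, Gstp1, Adh6b and Adh4 have a region at the TSS in the PHx row only, and 1 PHx region spans Cyp4f14 and Cyp4f13.

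Regions reached farther into the gene than upstream of it at 35 of the 53 members marked in both groups in sham and at 38 after PHx, against 60.8% and 61% of all genes. In these 53 members the median reach was 3560 bp upstream and 5821 bp downstream of the TSS in sham, and 4721 and 8737 bp after PHx. The downstream edge lay farther from the TSS after PHx in 43 genes (81.1%) and the upstream edge in 42 (79.2%), against 84.7% and 81.5% of all genes. The region covered a median of 32.7% of the gene in sham and 49.1% after PHx, where the medians of all genes were 29.3% and 55.6%. The whole gene was covered at 10 members (18.9%) in sham and 15 (28.3%) after PHx, against 22% and 36.2% of all genes. Another gene's listed TSS lay in the region at 4 members (7.55%) and 12 members (22.6%), against 9.52% and 30.4%. One peak of each library made up the region in 44 of these members in sham and in 39 after PHx. No share over all genes is at hand for this count, so it describes these 53 members only.

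Distal regions, more than 3 kb from the TSS, were also assigned to some of the drug metabolism genes. There were 18 in sham, at 15 genes, and 12 after PHx, at 8 genes, of 3738 and 2505 distal regions in the whole lists. Of the sham regions 4 had no overlap in the PHx list, at Adh5, Aldh3a1, Cyp4f17 and Cyp4f37, and of the PHx regions 2 had none in sham, where the shares over all distal regions were 18.6% and 37.6%. Both PHx-only regions were at the retinaldehyde dehydrogenase gene Aldh1a1, 22770 bp (14413 bp wide) and 46671 bp (10525 bp wide) from its TSS. Aldh8a1 had 3 distal regions in each group, which overlapped in pairs, of 7272, 14148 and 7458 bp in sham and 14530, 17612 and 7470 bp after PHx. The distal regions at Ces1h, Cyp2d37-ps, Ugt1a5 and Ugt2b35 were in both lists, and their promoters in neither. A member with no region at its promoter is in the set only because a region elsewhere names it.

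Genes that regulate or serve these enzymes were described from lists chosen with earlier results of these data known. All 19 regulator genes with a listed TSS, of 28 in the list, were marked in both groups, with a median ratio of 1.47, below the 1.74 of all genes. At least 1.5-fold wider after PHx were 8 of them, a smaller share than the 60.2% of all genes. Among these 8 were the small MAF gene Maff (9553 and 60468 bp), the bile acid receptor gene Nr1h4 (6726 and 38443 bp) and the glucocorticoid receptor gene Nr3c1 (8078 and 43878 bp). Nr1i2, which encodes the drug sensor PXR, measured 22678 and 33234 bp. The genes of AHR and its partner ARNT had almost equal widths, Ahr with 16790 and 16739 bp and Arnt with 17649 and 16707 bp. Of 25 partner and cofactor genes with a TSS 20 were in both, 3 in PHx only (Aox1, Akr1c6 and Papss2) and 2 in sham only (Nat2 and Papss1), where the shares of all genes were 17.8% and 8.19%. The median ratio was again 1.47. Papss1 and Papss2, which make the sulfate donor of sulfotransferases, had regions of 4062 bp (sham) and 14596 bp (PHx). The epoxide hydrolase gene Ephx2 went from 9803 to 75265 bp, and Ugdh, which makes UDP-glucuronic acid, from 9029 to 28126 bp. Narrower regions were found at Nqo2 (13746 and 5636 bp) and Cyb5r3 (36152 and 20424 bp). Of 11 transporter genes with a TSS 10 were in both, with a median ratio of 1.43, and Abcc4 was in sham only (14046 bp).

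Markers of the liver's cell types were looked up in the same lists. All 5 hepatocyte markers with a listed TSS (Alb, Apoa1, Ttr, Hnf4a and Asgr1) were marked in both groups, with summed widths of 140404 bp in sham and 273516 bp after PHx. Their median ratio was 1.79, against 1.74 over all genes. Among 6 endothelial markers that have a TSS in the lists, 5 had the mark in PHx only and 0 in sham, with summed widths of 0 and 116281 bp. Among the Kupffer cell markers 1 of 3 was in PHx only (Csf1r, 30957 bp, part of the PHx sum), with sums of 27400 and 72017 bp. Over all genes 17.8% were in PHx only. The whole lists covered 1.62 times as much sequence after PHx as in sham. The single stellate cell marker with a TSS, Colec11, was in PHx only (21178 bp), the single cholangiocyte marker, Sox9, was in both (6121 and 8707 bp), and no leukocyte marker had a TSS in the lists. In bulk tissue fewer cells of a type and less acetylation per cell cannot be told apart, and the part of cell make-up in the widths above was not tested.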

How the data were processed

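H3K27ac CUT&Tag of mouse liver was analysed from 2 deposited tables, 1 per group, each merged by the authors from 2 libraries. Tools named in the submitters' processing notes, without versions or roles, are SEACR, Bowtie2, DiffBind and ChIPseeker, and the builds are GRCm39 and mm39. No source used here states a threshold or filter. The tables hold no signal, and their columns give, per the file headers, region start, end and width in bp, the assigned gene and its TSS distance, and the peak numbers of each library joined in the region. Joining peaks of libraries widens regions and so lets them reach more TSSs. Depth is unknown.

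Regions were matched to TSS ± 1 kb, and the region nearest the TSS was used, with Python 3.11.15, numpy 2.4.6 and pandas 2.3.3. Distal regions overlapped when sharing 1 bp. Unused peak numbers are those missing between neighbouring regions of a library. Clusters join family members with TSSs within 200 kb. The functions were tested on simulated regions. All members could be named. Values were given in each family for up to 6 members marked in 1 group, up to 4 with the largest and 3 with the smallest ratio, and those in neither, and for other pathway genes up to 4 in 1 group and 3 at each end of the ratio. A regulator gene and a searched motif are not reported here. Members and lists were chosen with earlier results of these data known. Alternatives tried were other TSS windows and choices, the authors' own assignment, a minimum width of 5000 bp, other overlaps, distances and folds, and shared regions counted once.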

Additional observations from a re-analysis of the deposited data

How the results depend on the processing

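No paired analysis was possible because each group is 1 merged list without values per library, and for the same reason leaving out a replicate was not run. Of the 529 recomputed gene states 33 changed, at 28 members. A turn from one group only to the other could not occur, since each alternative narrowed or widened the search or left genes out. Without genes in stretches with unused peak numbers 2 members were left in PHx only (Adh4 and Gstp1) and 0 in sham only, and both of the former were marked in both groups with a window of 3 kb. By the authors' own assignment 9 members were in sham only, since a region shared with a neighbour counts for 1 gene, and with regions of at least 5000 bp 2 were. Divided by the median ratio of all genes, the median width ratio of the members was 0.786, with 6 members at least 1.5-fold wider (11.3%, all genes 28.2%) and 18 narrower (34.0%, all genes 19.8%). It was 1.22 in 1 to 1 overlaps, where 11 members passed 1.5-fold (26.8%, all genes 44.9%), 1.38 with the TSS itself as window, and 1.20 against the summed sham regions, an alternative added after seeing the data, where 1 member was narrower by 1.5-fold (Gstt3). The sham regions at Gstt3 ran beyond its PHx region of 12793 bp, and 10726 bp of their 22485 bp lay within it. At a fold of 2, 11 members were wider (20.8%, all genes 41.3%). With a reciprocal overlap of 50% 8 sham distal regions had no PHx partner. The other 52 of 66 recomputed counts and medians stayed within 1.5 times, or at the same median. Unknown depth means that a region missing from a list cannot be called absent from the tissue.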
